A study of Mus musculus with 8 samples.

Results

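The genes described here are 10 genes of the integrated stress response, the programme run by the transcription factor ATF4: Atf4, Atf3, Ddit3, Trib3, Chac1, Asns, Psat1, Phgdh, Sesn2 and Ppp1r15a. They were chosen by role and taken by symbol, with earlier results of these data known, and make up 10 of 17738 symbols and 11 of 23517 RefSeq transcripts measured, since Psat1 has 2 transcripts and each other gene 1. RNA was sequenced from whole spleens of 4 wild-type (WT) and 4 TTPΔARE mice, all untreated males of the C57BL/6 strain aged 8 to 12 weeks. TTPΔARE mice carry a germline form of Zfp36, the gene of the mRNA decay protein tristetraprolin (TTP), whose mRNA lacks an AU-rich element of its 3′ untranslated region (3′ UTR). The labels give neither zygosity nor litter nor batch. The question was whether the outputs of amino acid stress and endoplasmic reticulum (ER) stress differed between these spleens.

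In the integrated stress response, kinases that sense amino acid shortage, ER stress, heme shortage or double-stranded RNA phosphorylate the translation factor eIF2. General protein synthesis then slows while the ATF4 mRNA, which carries upstream open reading frames, is translated more, so much of the control of ATF4 is on translation and is not seen in mRNA levels. ATF4 binds C/EBP-ATF response elements, whose core reads TGATGNAA, and activates genes of amino acid synthesis, amino acid uptake and tRNA charging, further transcription factors, and feedback inhibitors. In the spleen, developing red cells use the heme-sensing kinase and antibody-secreting plasma cells carry a heavy ER load.

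The core element was looked for on both strands of the promoter window of each gene, from 250 bases before to 50 bases after the start site (RefSeq, GRCm38.p6), to show which of the genes carry it there. It was found in 4 of the 10 genes, and in 3.97% of all 32851 windows of that length. Each site is shown 5′ to 3′ on the strand that reads TGATGNAA, with those bases in capitals.
Atf3: ggacttggTGATGCAAgtgcgaga
Chac1: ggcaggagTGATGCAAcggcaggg
Trib3: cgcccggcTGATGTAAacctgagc
Asns: cagccacaTGATGAAActtcccgc
The printed stretches lie at chr1:191183428-191183451 (plus strand) for Atf3, chr2:119351041-119351064 (minus strand) for Chac1, chr2:152344031-152344054 (plus strand) for Trib3 and chr6:7693217-7693240 (minus strand) for Asns. The Asns core stands 23 to 16 bases before the start site, on the strand of the gene, and the other cores are on the strand opposite to the gene. A match is a run of letters and was not tested for binding.

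TTP binds AU-rich sequences, so the heptamer TATTTAT was looked for on the sense strand of the 3′ UTRs (GENCODE M21, GRCm38). It was found in 3 of the 10 genes, and in 25.4% of 21171 transcripts with a 3′ UTR. The sites are shown because Ppp1r15a holds a run of them, with the heptamers in capitals.
Ppp1r15a: cctatTATTTATTTATTTATTTATttgaa
Atf3: ttactTATTTATcccag
Chac1: accttTATTTATtgcac
The Ppp1r15a run, at chr7:45522951-45522979 on the minus strand, is 4 overlapping heptamers in 19 bases of a 3′ UTR of 76 bases. At least 2 heptamers are found in 8.47% of the transcripts. Atf3 has its heptamer at chr1:191170344-191170360 (minus strand) in a 3′ UTR of 1186 bases, and Chac1 at chr2:119353779-119353795 (plus strand) in one of 791 bases. The 3′ UTRs of Atf4, Ddit3, Asns, Phgdh, Psat1, Sesn2 and Trib3 do not hold the heptamer.

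Values are FPKM, fragments scaled by transcript length and library size, which can be compared between genes. The estimated depth was 28.3 to 32.2 M fragments per spleen, and each spleen was 1 animal. Zfp36 itself stood at 36.4 to 44.9 FPKM in WT and 46.1 to 57.5 FPKM in TTPΔARE spleens, without overlap (log2 0.39, limma adjusted p = 0.0323), though its measured length includes the part that the allele lacks. The B cell gene Cd79a stood at 193.4 ± 8.84 and 164.2 ± 4.15 FPKM (SD, n = 4 each) and the red pulp macrophage adhesion molecule Vcam1 at 123.4 ± 17.0 and 154.1 ± 29.4 FPKM in WT and TTPΔARE, so a marker of each of these cell types was present. Of 10 pancreas markers found in the table, 9 were at most 0.236 FPKM in any spleen, and the elastase Cela1 was at most 5.46 FPKM. In limma's test 664 of 16608 transcripts passed (adjusted p under 0.05). Whole tissue was sequenced, so fewer cells of a type and less RNA per cell cannot be told apart.

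None of the 8 genes that could be tested passed in these spleens, and the other 2, Trib3 and Chac1, were too low: they stood under the minimum mean of 0.5 FPKM and were given by their values. Of the 9 transcripts of the other 8 genes, 0 passed in limma, where 4.00% of all transcripts did (2.01% higher, 1.99% lower). An unadjusted p under 0.05 was found for 3, those of Atf4, Atf3 and Ddit3, and for 21.1% of all transcripts tested. The groups did not overlap for 1 of the 9, Atf4, against 12.5% of all transcripts in either direction and 5.99% with TTPΔARE lower. The log2 difference, TTPΔARE minus WT, was above 0 for 7 and below 0 for 2 of the 9, with a median of 0.08, beside 0.003 over all transcripts tested.

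**Figure D1:**
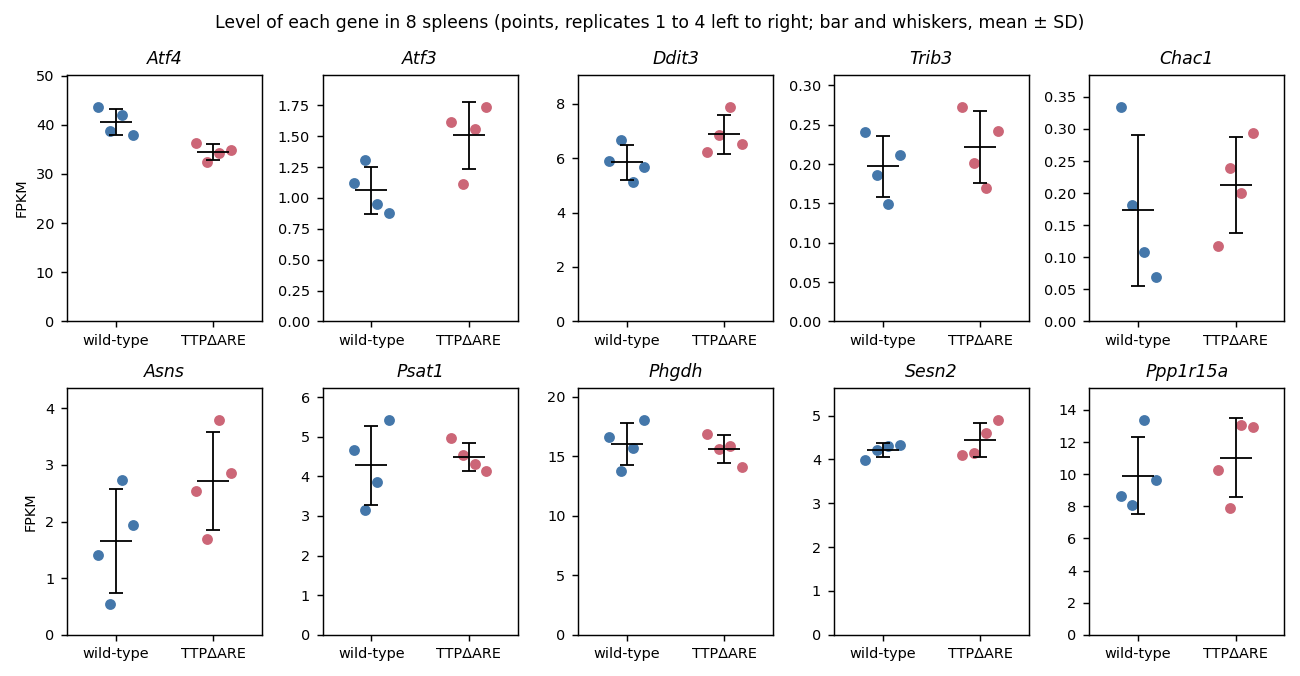
FPKM of each of the 10 genes (y axis, from 0, a separate scale for each gene) in 4 wild-type (blue) and 4 TTPΔARE (red) spleens, with the mean and SD; Psat1 is its longer transcript. The groups are apart for Atf4 and overlap for the other 9 genes.

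The levels of the 10 genes spanned a wide range. Atf4 had the highest mean over the 8 spleens, 37.5 FPKM, a level exceeded by 2.99% of all transcripts in the table. Phgdh followed at 15.8, Ppp1r15a at 10.5 and Ddit3 at 6.36 FPKM. Neither Atf4 and Phgdh, Phgdh and Ppp1r15a, nor Ppp1r15a and Ddit3 overlapped over the 8 spleens, although the lowest Ppp1r15a value, 7.895 FPKM, was barely above the highest Ddit3 value, 7.885 FPKM. The longer Psat1 transcript (4.38 FPKM), Sesn2 (4.32), the shorter Psat1 transcript (3.05), Asns (2.19) and Atf3 (1.29) came next. In this order neighbours overlapped, from Ddit3 and the longer Psat1 transcript on to Asns and Atf3, except Sesn2 (lowest 3.98 FPKM) and the shorter Psat1 transcript (highest 3.55 FPKM). Trib3 (0.210) and Chac1 (0.193) were lowest and also overlapped.

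Atf4, the transcription factor at the centre of the response, was lower in every TTPΔARE spleen than in any WT spleen. The WT values were 43.7, 38.6, 42.0 and 38.0 FPKM for replicates 1 to 4, and the TTPΔARE values 36.2, 32.4, 34.3 and 34.9 FPKM. The gap between the groups was narrow, between WT replicate 4 and TTPΔARE replicate 1. The means were 40.5 ± 2.70 and 34.5 ± 1.57 FPKM (SD, n = 4 each), a 1.17-fold difference (log2 -0.23, SE 0.0622, 95% confidence interval -0.37 to -0.09). It did not pass over all transcripts (limma adjusted p = 0.0641), while the exact permutation test, two-sided with 70 ways to assign the genotypes, gave p = 0.0286, its lower limit with these group sizes. It passed in none of the 19 alternatives, processing settings and left-out spleens together, whose limma adjusted p ran from 0.0541 to 0.461. Atf4 lies on chromosome 15 at 80255184 to 80257545 (GRCm38.p6, as for all genes here).

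Over the 8 spleens the transcripts whose standardised profile was nearest to that of Atf4 were those of the immediate early gene Ier2, Apopt1 and Cdipt, with root mean square distances of 0.207, 0.215 and 0.219. These were the smallest of all tested transcripts of other symbols, and they describe these 8 spleens only. Ier2 stood at 13.1 ± 2.02 and 9.62 ± 1.01 FPKM in WT and TTPΔARE (SD, n = 4 each; log2 -0.41, limma adjusted p = 0.0549). Apopt1 stood at log2 -0.13 (limma adjusted p = 0.249) and Cdipt, which encodes phosphatidylinositol synthase, at -0.25 (0.0378). Being chosen for nearness to Atf4, whose groups were apart, set the direction of these differences.

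Atf3 and Ddit3, transcription factors that ATF4 induces, had values on the other side of 0 from Atf4. Atf3, which encodes a stress-induced factor of the bZIP family, stood at 1.12, 1.304, 0.948 and 0.878 FPKM in WT replicates 1 to 4 and at 1.62, 1.11, 1.56 and 1.74 FPKM in TTPΔARE replicates 1 to 4. Of the TTPΔARE spleens 3 were above every WT spleen, and TTPΔARE replicate 2 lay within the WT range. The difference was log2 0.36 (SE 0.119, 95% confidence interval 0.10 to 0.62) and did not pass (limma adjusted p = 0.118, exact permutation p = 0.0857). Without TTPΔARE replicate 2 it passed (log2 0.46, limma adjusted p = 0.0412), and over the other 18 alternatives the adjusted p was 0.0745 to 0.577. Each Atf3 value rests on about 55 to 111 fragments.

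Ddit3 encodes CHOP, the factor that links long ER stress to cell death. Its values were 5.91, 6.67, 5.11 and 5.67 FPKM in WT replicates 1 to 4 and 6.21, 6.86, 7.89 and 6.53 FPKM in the TTPΔARE replicates. The groups overlapped through WT replicate 2, which was above TTPΔARE replicates 1 and 4. The difference was log2 0.22 (SE 0.0891, 95% confidence interval 0.02 to 0.41) and did not pass (limma adjusted p = 0.192, exact permutation p = 0.0857). The gene overlaps Mars, the methionyl-tRNA synthetase gene, by 68 bases on the opposite strand, and Mars stood at 5.53 to 6.69 FPKM over the 8 spleens. The strand setting of the counting is not given in the sources used here, so reads in those bases cannot be assigned.

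Trib3 and Chac1 were barely measured in either genotype. Trib3, a pseudokinase that ATF4 and CHOP induce and that dampens their activity, ranged from 0.150 to 0.241 FPKM in WT and from 0.169 to 0.273 FPKM in TTPΔARE spleens. Chac1, an enzyme that degrades glutathione, ranged from 0.0687 to 0.335 FPKM in WT and from 0.118 to 0.294 FPKM in TTPΔARE spleens. The groups overlapped almost fully for both. The values stand for about 9 to 18 fragments of Trib3 and 4 to 16 of Chac1 in a spleen, so counting error alone is large at this depth. Without the minimum, limma gave log2 0.05 for Trib3 (adjusted p = 0.747) and 0.09 for Chac1 (adjusted p = 0.741) on the log2(FPKM + 0.5) scale, which shrinks differences of genes this low.

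Ppp1r15a and Sesn2 act as brakes. Ppp1r15a encodes GADD34, the inducible subunit that directs a phosphatase to eIF2 and ends the response. It stood at 8.63, 8.05, 13.4 and 9.61 FPKM in WT replicates 1 to 4 and at 10.2, 7.90, 13.1 and 12.9 FPKM in the TTPΔARE replicates. The highest spleen was a WT one, replicate 3, and the lowest a TTPΔARE one, replicate 2. The difference was log2 0.15 (SE 0.172, 95% confidence interval -0.23 to 0.53; limma adjusted p = 0.683). Leaving out each spleen in turn moved it between 0.059 and 0.293. This is the gene with the run of 4 AU-rich heptamers printed above. The 95% confidence interval given here includes a rise as large as the log2 0.39 of Zfp36, but not a fall of that size. Ppp1r15a overlaps Tulp2 by 717 bases on the opposite strand, and Tulp2 was at most 0.0388 FPKM in any spleen.

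Sesn2 encodes sestrin 2, a leucine sensor that inhibits the growth kinase complex mTORC1. Its WT values were 3.98, 4.21, 4.31 and 4.33 FPKM and its TTPΔARE values 4.10, 4.15, 4.61 and 4.90 FPKM, in the order of the replicates. Spleens of both genotypes lay close together, with TTPΔARE replicates 3 and 4 above all WT spleens. The difference was log2 0.07 (SE 0.0686, 95% confidence interval -0.08 to 0.22; limma adjusted p = 0.639), an interval that excludes a rise as large as the log2 0.36 measured for Atf3. Between its gene bounds Sesn2 overlaps the annotated gene Gm12981 by 6089 bases on the same strand. No level of Gm12981 was available, so any reads shared with it cannot be assigned.

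The 3 genes of amino acid synthesis gave log2 differences from near 0 to the largest of the set. Asns, asparagine synthetase, had the largest difference of the 9 transcripts and the widest spread. It stood at 1.40, 0.546, 2.74 and 1.94 FPKM in WT replicates 1 to 4 and at 2.53, 1.70, 3.79 and 2.87 FPKM in the TTPΔARE replicates. The WT group alone spanned a range from 0.546 to 2.74 FPKM, and WT replicate 3 was above TTPΔARE replicates 1 and 2. The means were 1.66 ± 0.921 and 2.72 ± 0.866 FPKM (SD, n = 4 each), with a log2 difference of 0.65 (SE 0.300, 95% confidence interval -0.005 to 1.31; limma adjusted p = 0.240, exact permutation p = 0.171). Without WT replicate 2, the lowest spleen, it was log2 0.35 (limma adjusted p = 0.419), and without any 1 of the other spleens 0.50 to 0.89.

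Phgdh and Psat1 encode the first 2 enzymes that make serine from a glycolytic intermediate. Phgdh stood at 16.6, 13.8, 15.7 and 18.03 FPKM in WT and at 16.9, 15.6, 15.8 and 14.0 FPKM in TTPΔARE replicates 1 to 4, with the highest and the lowest spleen both WT. Its difference was log2 -0.03 (SE 0.0839, 95% confidence interval -0.22 to 0.15; limma adjusted p = 0.865). The longer Psat1 transcript stood at 4.67, 3.14, 3.87 and 5.42 FPKM in WT and at 4.97, 4.54, 4.32 and 4.13 FPKM in TTPΔARE replicates, again with both extremes in WT. Its difference was log2 0.08 (SE 0.129, 95% confidence interval -0.20 to 0.37; limma adjusted p = 0.766). The shorter transcript, which shares most of its sequence and so its reads, gave log2 0.07 (limma adjusted p = 0.802).

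**Figure D2:**
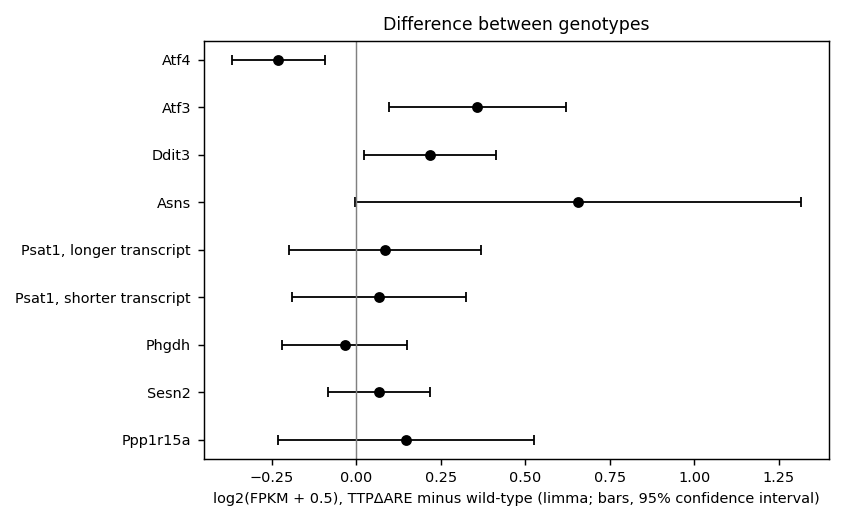
Log2 difference between genotypes (x axis, TTPΔARE minus wild-type on log2(FPKM + 0.5)) for the 9 tested transcripts, with 95% confidence intervals from limma, not adjusted for the number of transcripts. The interval of Atf4 lies below 0 and those of Atf3 and Ddit3 above 0, and the intervals of the other 6 include 0.

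Within each genotype, Asns and Ppp1r15a ordered the spleens in the same way as markers of red cell precursors did. Over all 8 spleens together the orders were not the same. The mean log2(FPKM + 0.5) of 23 erythroid markers was 2.30, 2.21, 3.89 and 3.13 in WT replicates 1 to 4 and 3.98, 3.55, 4.54 and 4.54 in the TTPΔARE replicates, with TTPΔARE replicate 3 at 4.544 and replicate 4 at 4.537. Among the WT spleens the erythroid mean, Asns and Ppp1r15a were all highest in replicate 3, then 4, 1 and 2, and among the TTPΔARE spleens all were highest in replicate 3, then 4, 1 and 2. This order within both genotypes was held by these 2 of the 9 transcripts and by 0.578% of all transcripts tested, and it was looked for after the values were seen.

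**Figure D3:**
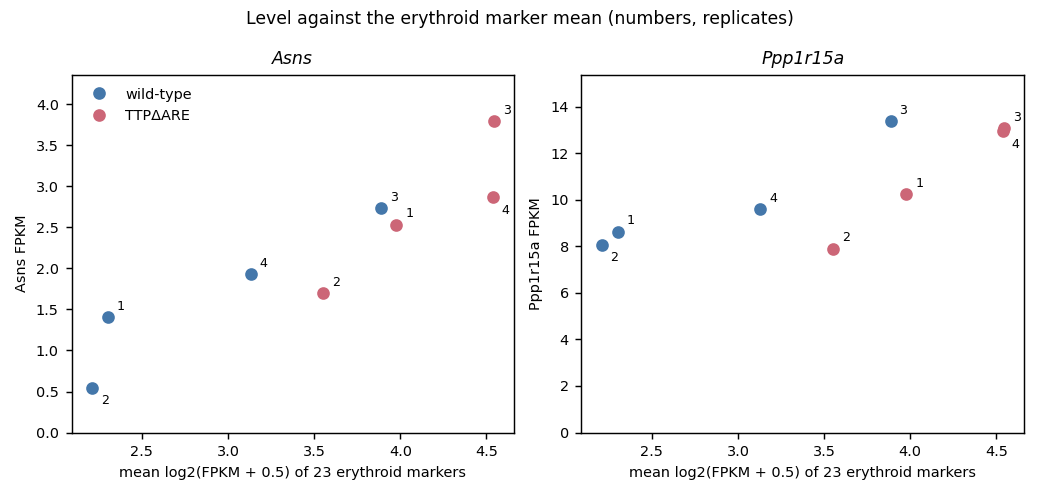
Asns (left) and Ppp1r15a (right) in FPKM (y axis, from 0) against the mean log2(FPKM + 0.5) of 23 erythroid markers (x axis) in each spleen; numbers are replicates, blue is wild-type and red TTPΔARE. Within each genotype both genes are lowest in replicate 2 and highest in replicate 3, as the erythroid mean is.

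The erythroid mean overlapped between the genotypes, since WT replicate 3 was above TTPΔARE replicate 2 (difference of means log2 1.27, two-sided exact permutation p = 0.0571). Of the 23 markers, 6 rose, 0 fell and 17 did not pass, with a median log2 difference of 1.25. All 23 had an unadjusted limma p under 0.05, beside 21.1% of all transcripts tested. The number that rose was 2 without WT replicate 4 or TTPΔARE replicate 3, 3 without TTPΔARE replicate 4 and 23 without WT replicate 3. Their summed level was 2735 to 4981 FPKM in WT and 6473 to 10130 FPKM in TTPΔARE spleens, most of it globin, and none was at 0. With the erythroid mean as a covariate, Asns was at log2 -0.33 (SE 0.225, limma adjusted p = 0.726) and Ppp1r15a at -0.44 (SE 0.114, limma adjusted p = 0.270), both on the other side of 0. These 2 genes had been picked out by their order along that same mean, so a downward shift in this fit was set by the choice. Atf4 was at -0.26, Atf3 at 0.40 and Ddit3 at 0.34 in that fit, with limma adjusted p of 0.461, 0.577 and 0.460. Their SEs were 0.0995, 0.183 and 0.130, against 0.0622, 0.119 and 0.0891 without the covariate. With the covariate 0 of 16608 transcripts passed. The erythroid mean was itself higher on average in TTPΔARE spleens, so that fit cannot fully separate it from genotype.

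The other genes of the pathway were read from lists by role. As the share beside the counts in these lists, 4.00% of all transcripts tested passed in limma. An unadjusted limma p under 0.05 was found for 21.1% of them. Of 6 tested enzymes of serine, glycine, one-carbon and amino acid synthesis 0 passed in limma and 3 had an unadjusted p under 0.05, with a median log2 of 0.04. These were Gpt2, an alanine aminotransferase (0.630 ± 0.145 in WT and 0.877 ± 0.0653 FPKM in TTPΔARE, SD, n = 4 each; log2 0.29), Aldh18a1, which starts proline synthesis (log2 0.24), and Psph, which completes serine synthesis (log2 -0.19), with limma adjusted p of 0.128, 0.228 and 0.188. The mitochondrial folate enzyme Mthfd2 stood at log2 0.10.

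Of 8 amino acid transporters 0 passed in limma and 3 had an unadjusted p under 0.05, and their median was 0.001. Slc7a11, the cystine importer, stood at 2.98 ± 0.627 in WT and 1.80 ± 0.605 FPKM in TTPΔARE (SD, n = 4 each; log2 -0.62, limma adjusted p = 0.0721), and its partner subunit Slc3a2 at 15.1 ± 0.823 and 12.8 ± 0.736 FPKM (log2 -0.22, limma adjusted p = 0.0705). The glycine transporter Slc6a9 stood at log2 0.55 (limma adjusted p = 0.165) and the glutamine transporter Slc1a5, the most abundant, at -0.02. Slc7a11 passed without TTPΔARE replicate 2 (log2 -0.77, limma adjusted p = 0.0234), and Slc6a9 without WT replicate 3 (log2 0.74, limma adjusted p = 0.0425).

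The 20 cytosolic aminoacyl-tRNA synthetases, which charge tRNAs and many of which ATF4 activates, spanned a narrow range of differences. In limma 0 of 20 passed and 1 had an unadjusted p under 0.05, with a median of -0.01. Farsa stood at log2 -0.15, Wars at -0.13 and Farsb at 0.11, and the most abundant, Vars, at 51.0 ± 4.36 in WT and 49.2 ± 1.52 FPKM in TTPΔARE (SD, n = 4 each; log2 -0.05).

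Of 12 tested genes among other targets of ATF4 and CHOP 0 passed in limma and 3 had an unadjusted p under 0.05, with a median of 0.04. Xpot, the nuclear exporter of tRNA, stood at 7.71 ± 0.433 in WT and 8.87 ± 0.408 FPKM in TTPΔARE (SD, n = 4 each; log2 0.19, limma adjusted p = 0.102). The bZIP repressor Jdp2 stood at log2 0.50 (limma adjusted p = 0.165) and the stress hormone Gdf15 at -0.29 (0.232), and the mTORC1 inhibitor Ddit4 at 0.08 with an SE of 0.272. Jdp2 passed without TTPΔARE replicate 1 (log2 0.68, limma adjusted p = 0.0425).

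Upstream of ATF4, 15 genes of the eIF2 kinases, eIF2, its exchange factor eIF2B and regulators of these were read. In limma 0 of the 15 passed and 3 had an unadjusted p under 0.05, with a median of -0.02. The heme-sensing kinase gene Eif2ak1 stood at 14.5 ± 1.36 in WT and 16.6 ± 1.75 FPKM in TTPΔARE (SD, n = 4 each; log2 0.19), and the ER stress kinase gene Eif2ak3, which encodes PERK, at 11.7 ± 0.817 and 10.5 ± 0.602 FPKM (log2 -0.15), with limma adjusted p of 0.230 and 0.220. Ppp1r15b, the constitutive counterpart of Ppp1r15a, stood at log2 -0.13 (limma adjusted p = 0.187), and the eIF2 subunit gene Eif2s3x at -0.02.

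In the other arms of the unfolded protein response, those of XBP1 and ATF6, 1 of 18 genes rose and 17 did not pass, with a median of 0.03. An unadjusted limma p under 0.05 was found for 5 of the 18, and for 21.1% of all transcripts tested. The one that rose was Pdia4, an ER disulfide isomerase, from 59.6 ± 2.50 to 79.2 ± 6.70 FPKM (SD, n = 4 each; log2 0.40, limma adjusted p = 0.0121). Manf, an ER-resident survival factor, stood at log2 0.23 (limma adjusted p = 0.117), Atf6 itself at -0.23 (0.121) and the chaperone Hsp90b1 at 0.04. Without TTPΔARE replicate 2 Atf6 passed as well (log2 -0.30, limma adjusted p = 0.0378). Xbp1, the factor of plasma cells and of ER expansion, stood at log2 -0.08 and the ER chaperone Hspa5, known as BiP, at 0.04, and neither passed. Of 8 plasma cell markers 1 fell, Txndc5 (log2 -0.61), 0 rose and 7 did not pass, with a median of -0.34 and a summed level of 282.5 to 603.4 FPKM in WT and 266.1 to 321.6 FPKM in TTPΔARE spleens. No plasma cell marker passed without WT replicate 4 or without TTPΔARE replicate 1, 3 or 4, and 2 did without WT replicate 3. The part of plasma cells in these values was not tested.

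Sesn2 is also a target of p53, and Atf3 and Ppp1r15a are also induced as early response genes, so both of those lists were read. Of 10 p53 target genes 2 rose and 8 did not pass: the pro-apoptotic Bbc3, known as PUMA, from 2.25 ± 0.215 to 3.08 ± 0.206 FPKM (SD, n = 4 each; log2 0.38, limma adjusted p = 0.0218) and the cyclin Ccng1 (log2 0.26, limma adjusted p = 0.0253), while Bax stood at 0.22 (0.123). The median of the 10 was 0.09, and 8 were above 0. An unadjusted limma p under 0.05 was found for 3, and for 21.1% of all transcripts tested. Mdm2 stood at log2 -0.14 and Cdkn1a at 0.10, and neither passed. Leaving out WT replicate 2 or 4, or TTPΔARE replicate 1 or 4, ended the Bbc3 call (limma adjusted p 0.0528, 0.0536, 0.0548 and 0.0554), leaving out WT replicate 2 or 4, or TTPΔARE replicate 3 or 4, that of Ccng1 (0.0619, 0.0667, 0.0914 and 0.0908), and Bax gained one without WT replicate 1 (0.0299). Of 14 immediate early genes 2 fell and 12 did not pass, with a median of -0.14, and 5 had an unadjusted limma p under 0.05. The nuclear receptor Nr4a1 fell from 15.1 ± 1.21 to 11.5 ± 0.969 FPKM (SD, n = 4 each; log2 -0.38, limma adjusted p = 0.0217) and the antiproliferative Btg2 by 0.28 on the log2 scale (0.0389). The Nr4a1 call ended on leaving out WT replicate 2 or 4, or TTPΔARE replicate 4 (limma adjusted p 0.0510, 0.0648 and 0.0612), and Btg2 without any of 6 of the 8 spleens (0.0570 to 0.134). Ier2 passed without WT replicate 2 (log2 -0.49, limma adjusted p = 0.0350).

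**Figure D4:**
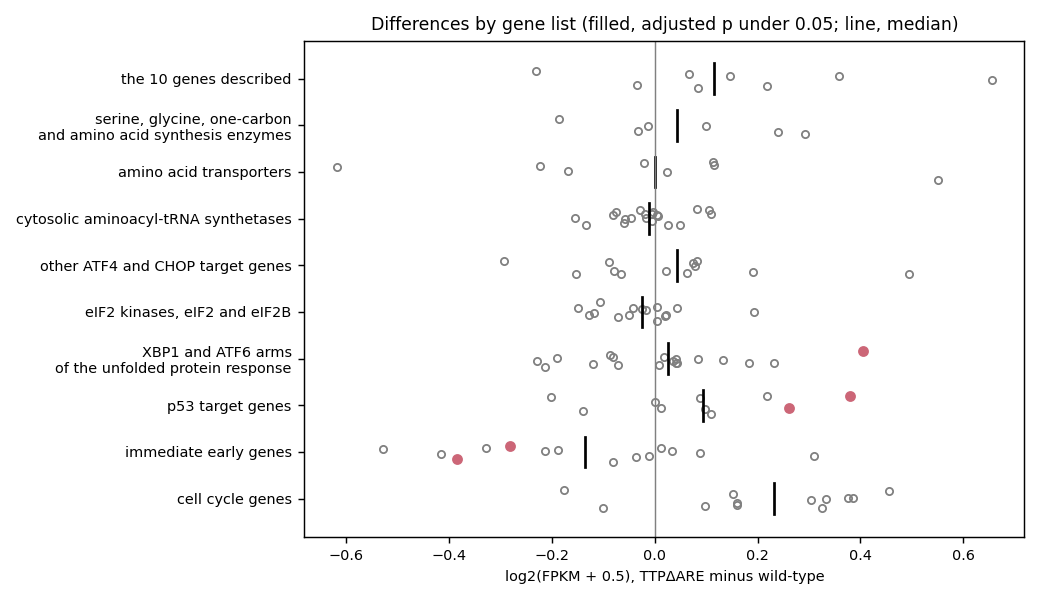
Log2 difference between genotypes (x axis) of each tested gene of the 10 described and of 9 lists (rows), 1 transcript per gene; filled points passed at an adjusted p under 0.05 and the black line is the median. Filled points are seen among the XBP1 and ATF6 arms (1), p53 targets (2) and immediate early genes (2), and in none of the other rows.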

How the data were processed

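The authors deposited FPKM per RefSeq transcript for 8 spleens, and the submitters' processing notes name BWA and mm10. How fragments were counted, on which annotation and with what strand setting is not given in the sources used here. Groups came from the genotype labels, and replicates were numbered in accession order, which pairs nothing. The 16608 transcripts whose mean reached 0.5 FPKM were tested on log2(FPKM + 0.5), which understates changes of low genes, with limma 3.58.1 in R 4.3.3 (variance trend, two-sided, Benjamini-Hochberg over all, threshold 0.05). The exact permutation test used all 70 assignments. Depth was estimated from steps between values up to 0.5 FPKM: 39.9 to 43.4% were whole fragments within 0.05 at the best depth, too few to rebuild counts. Lengths and 3′ UTRs came from GENCODE M21, gene positions and promoters from RefSeq. Tested on simulated data of the same size (16608 transcripts), limma recovered 54% of 50 transcripts changed 1.3-fold and 92% at 1.5-fold. The simulation shuffled the SDs among transcripts and drew noise independently for each value. Its rates are thus no measure for a single gene, least of all one with a wide spread such as Asns.

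The 10 genes and the lists were chosen with earlier results of these data known. Named genes are the 10, Zfp36, from each list the 3 of smallest p, the most abundant and all that passed, and the 3 nearest to Atf4. Xbp1, Hspa5, Mars, Tulp2, Mki67, Fos, Cr2, Cd8a, Mdm2 and Cdkn1a were named after their values were seen. Alternatives were pseudocounts, filters, scalings, variance models, sample weights, an erythroid covariate, summing by symbol and leaving out each spleen. Lists used the most abundant transcript of each symbol. Tables and plots were made with Python 3.11.15, numpy 2.4.6, pandas 2.3.3 and matplotlib 3.10.9.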

Additional observations from a re-analysis of the deposited data

How the results depend on the processing

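Of 170 recomputed values of the 9 tested transcripts, 162 kept their direction and stayed short of the threshold. With the erythroid covariate Asns, Ppp1r15a and Sesn2 turned to log2 -0.33, -0.44 and -0.043. Zfp36 did not pass in that fit (log2 0.26, limma adjusted p = 0.578), and 0 transcripts passed in either direction. That covariate was itself higher on average in TTPΔARE spleens, so the fit cannot fully separate it from genotype. With a spleen left out the Psat1 transcripts spanned -0.038 to 0.196 and -0.026 to 0.143, below 0 without WT replicate 2, and Phgdh -0.103 to 0.023, above 0 without WT replicate 4 or TTPΔARE replicate 4. Atf3 passed without TTPΔARE replicate 2 (log2 0.46), so with a spleen left out 0 to 1 of the genes passed upward and 0 downward. Over the left-out spleens Zfp36 spanned 0.34 to 0.45 and lost its call without WT replicate 1 or 4 or TTPΔARE replicate 1, 3 or 4, and 93 to 437 transcripts passed upward and 104 to 332 downward, from 333 and 331. Calls then numbered 0 to 1 among transporters, 0 to 1 among other ATF4 and CHOP targets, 1 to 2 in the XBP1 and ATF6 arms, 0 to 3 among p53 targets and 0 to 2 among immediate early genes. The cause was not tested. No paired analysis was possible because the labels give no replicate number or pairing. Depth limits Chac1 and Trib3, at 4 to 18 fragments a spleen.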

Other observations

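Cell cycle genes, which mark dividing cells, had the highest median of the lists other than cell markers, 0.23, and 10 of 12 were above 0. In limma 0 of 12 passed and 1 had an unadjusted p under 0.05, Nusap1 (log2 0.33), beside 21.1% of all transcripts tested. Mki67 stood at 13.8 ± 5.98 in WT and 16.8 ± 1.44 FPKM in TTPΔARE (SD, n = 4 each, log2 0.38).

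Of the markers of other cells, 2 of 10 B cell genes fell, Fcer2a and Cd22 (median -0.21), and 2 of 11 neutrophil genes rose, Retnlg and Mmp8 (median 0.27). Among the B cell genes 1 was above 0, Cr2 (log2 0.31, limma adjusted p = 0.121). With 1 spleen left out 0 to 3 neutrophil genes passed, 0 without TTPΔARE replicate 3 and 1 without WT replicate 4 or TTPΔARE replicate 4. Emr1 rose as 1 of 12 red pulp macrophage genes (median 0.17), of which 0 passed without WT replicate 2 or 4 or TTPΔARE replicate 3 or 4 and 2 without WT replicate 3 or TTPΔARE replicate 1. Of 10 T cell genes 0 passed in limma and 6 had an unadjusted p under 0.05, beside 21.1% of all transcripts tested (median -0.16). Among the T cell genes 3 were above 0, and Cd8a, which was among the 6, stood at log2 0.19 (limma adjusted p = 0.179). No adipose marker reached the minimum level, and the summed adipose level was at most 2.08 FPKM. Fos, an early response factor, varied widely among the WT spleens, with 2.47 ± 1.49 FPKM against 1.40 ± 0.192 FPKM in TTPΔARE (SD, n = 4 each), and its difference did not pass (log2 -0.53, limma adjusted p = 0.266).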
